A study of Mus musculus with 4 samples.

Results

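The synuclein genes Sncb and Sncg were followed by symbol through the deposited table, in which they are 2 of 27999 gene rows. Both were measured in every class of retinal barcode described here. Cells came from retinas of C57BL/6 mice aged 3 months that carry a Brn3b::GFP reporter, and cells positive for GFP were sorted before droplet capture. Every barcode therefore comes from reporter animals without treatment, there is no comparison of genotypes or ages, and the labels name 4 retinas of 1 group. The library chemistry reads the 3′ ends of transcripts and counts each captured molecule once as a unique molecular identifier (UMI). No barcode name ties a cell to a retina, so the table was read as 1 pooled sample, and every interval given is a 95% exact interval for counting error only.

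Synucleins are small soluble proteins of neurons that bind lipid membranes and are concentrated in presynaptic terminals and axons. Sncb encodes beta-synuclein, a presynaptic protein that shows chaperone-like activity in vitro, and Sncg encodes gamma-synuclein, which binds to cytoskeletal and membrane structures and is abundant in sensory and motor neurons. In the mouse retina Sncg is widely used as a label of retinal ganglion cells (RGCs), the neurons whose axons form the optic nerve, while Sncb is known from many kinds of neuron.

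In the GENCODE M21 annotation of the mm10 build, Sncg (ENSMUSG00000023064) lies on the minus strand of chromosome 14 from 34370274 to 34374789 and has 1 transcript with 5 exons. Sncb (ENSMUSG00000034891) lies on the minus strand of chromosome 13 from 54758860 to 54766595 and has 4 transcripts, the longest of them with 6 exons. Overlap with other annotated genes was not examined. The stretch from 250 to 121 bases before the RefSeq start of each gene is shown because the pair differed so much between cell classes. The letters are from the RefSeq promoter table of build GRCm38.p6, printed 5′ to 3′ on the gene's own strand, at chr14:34374790-34374919 for Sncg and at chr13:54766716-54766845 for Sncb. Capitals mark matches on either strand to TAAT, the core of many homeodomain sites, or to CCAAT, the CCAAT box.
Sncg: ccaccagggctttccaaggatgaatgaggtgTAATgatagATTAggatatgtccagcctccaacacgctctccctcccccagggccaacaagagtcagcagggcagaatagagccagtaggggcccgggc
Sncb: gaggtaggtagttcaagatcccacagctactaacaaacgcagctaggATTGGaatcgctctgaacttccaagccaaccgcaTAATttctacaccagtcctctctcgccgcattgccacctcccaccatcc

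The GENCODE start of Sncg lies 120 bases before its RefSeq start, directly next to the printed stretch, and the 2 starts of Sncb coincide. The Sncg stretch held 2 TAAT matches, at -219 and -210 from the RefSeq start, which is -99 and -90 from the GENCODE start, and no CCAAT match. The Sncb stretch held 1 TAAT match at -169 and 1 CCAAT match at -203. These are common letters: 41.1% of the 27025 promoters in the table hold TAAT in the same window and 17.6% hold CCAAT. Neither stretch held the other motifs searched on both strands, which were the cyclic AMP core TGACG (in 6.99% of promoters), the E-box CANNTG (44.2%), the GC box GGGCGG (13.7%), the TATA box TATAAA (6.74%) and the octamer ATGCAAAT (0.803%). The marked matches do not overlap each other. The Sncg stretch was 56.9% G and C with 2 CpG dinucleotides, and the Sncb stretch was 51.5% G and C with 5, beside medians of 50% and 2 over all promoters. A match describes the letters and not a bound site.

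The table held 31361961 UMIs in 3237 barcodes, from 3198 to 53709 UMIs a barcode. After the cell filter 2636 barcodes were kept, and 2192 of them met the rule of exactly 1 class. RGC barcodes had at least 1 Slc17a6 UMI, at least 3 Rbpms and Slc17a6 UMIs together and at most 1 Lhx1 UMI, and 909 barcodes met this rule. The other classes were 402 horizontal, 107 amacrine, 318 bipolar, 97 cone, 220 Müller glia and 139 microglia barcodes. Checked against markers that the rules did not use, 7 of 8 RGC markers were highest in the RGC barcodes, as were 5 of 6 horizontal, 5 of 6 amacrine, 7 of 7 bipolar, 6 of 6 cone, 6 of 6 Müller and 6 of 6 microglial markers in their own classes. The cone barcodes also held all 4 rod markers at their highest level, in sum 11825 counts per 1000000 UMIs (CPM), against 269 to 1198 CPM in the other classes. Most of this sum was Sag at 6904 CPM and Pdc at 3414 CPM, with Gnat1 at 1235 CPM and Nrl at 271 CPM. The source of these transcripts was not tested. The median depth was 15800 UMIs in RGC barcodes, 11148 in horizontal, 5648 in amacrine, 4299 in bipolar, 3698 in cone, 4654 in Müller and 3732 in microglial barcodes. The deposited table lists an EGFP row with 0 UMIs, so the reporter transcript could not be checked in it. Pou4f2, the gene also called Brn3b, was at 84.4 CPM in RGC barcodes. In the other classes it was at 1.54 CPM (amacrine) to 5.26 CPM (microglia), so the table also holds many barcodes almost without it.

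Sncg stood far above every other class in RGC barcodes, while Sncb was high in RGC, amacrine, bipolar and cone barcodes alike and highest in amacrine barcodes. Levels are CPM of the UMIs summed over a class. They are not divided by transcript length, so each gene is compared between classes and the levels of the 2 genes are not ranked against each other. Ordered by UMIs in RGC barcodes, without regard to length, Sncg was the 10th gene and Sncb the 30th, and in amacrine barcodes Sncg was the 1570th and Sncb the 14th.

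Sncg was at 4128 CPM in the summed RGC barcodes (interval 4096 to 4160). Over the 909 single RGC barcodes it ranged from 0 through a median of 3960 to 10762 CPM, and 1 barcode had no Sncg UMI. RGC barcodes were thus nearly uniform in having the transcript but differed widely in how much of it they held.

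In horizontal barcodes Sncg was at 365 CPM (347 to 383), with 0, 323 and 1258 CPM as the lowest, median and highest of 402 barcodes. These interneurons of the outer retina, which contact photoreceptors and are marked by Lhx1, formed the only other class above the low common level of the rest. The remaining classes were close together, at 117 CPM (92.0 to 146) in amacrine, 127 CPM (94.6 to 167) in cone, 133 CPM (115 to 152) in bipolar, 135 CPM (114 to 159) in Müller and 152 CPM (122 to 188) in microglial barcodes. Their intervals overlap, so the order among these 5 classes is not resolved by the counts. The median barcode had no Sncg UMI in bipolar, cone, Müller and microglial barcodes and 124 CPM in amacrine barcodes. The highest single barcode of these classes reached 926 CPM, in a bipolar barcode.

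The ratio of RGC to horizontal barcodes for Sncg was 11.3 (10.8 to 11.9). It was 35.4 (28.3 to 44.9) over amacrine, 31.1 (27.1 to 35.8) over bipolar, 32.5 (24.7 to 43.7) over cone, 30.5 (25.9 to 36.2) over Müller and 27.1 (22.0 to 33.8) over microglial barcodes. Sncg was therefore at least 2-fold higher in RGC barcodes in all 6 comparisons. Among all genes with 100 or more UMIs over the 2 classes compared, the share at 2-fold or more higher in RGC barcodes was 18.9% against horizontal, 11.7% against amacrine, 25.6% against bipolar, 25.2% against cone, 30.5% against Müller and 42.5% against microglial barcodes. Within these backgrounds Sncg stood near the top: 7 of 9741 genes had a higher ratio of RGC to amacrine barcodes, 27 of 9724 over cone, 62 of 9937 over bipolar, 76 of 10005 over Müller and 95 of 9897 over microglial barcodes. Against horizontal barcodes 601 of 10238 genes had a higher ratio. For these ranks and shares, a sum under 3 UMIs in the denominator class was counted as 3. This limits the ratio that a gene with few RGC UMIs can reach, and more so in classes with fewer UMIs. The ranks are therefore not compared between classes. When barcodes that met several class rules were counted in each of those classes, the ratio was 10.4 over amacrine and 14.0 over bipolar barcodes.

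Sncb was at 2281 CPM in RGC barcodes (2257 to 2305), and single barcodes ran from 0 through a median of 2247 to 4269 CPM. In amacrine barcodes, the inhibitory interneurons of the inner retina, it was at 3825 CPM (3677 to 3979), from 173 through 3924 to 7117 CPM over 107 barcodes. The ranges of single barcodes overlap, but the amacrine median lies close to the RGC maximum. No amacrine barcode lacked Sncb.

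Cone barcodes had 1686 CPM of Sncb (1561 to 1818; lowest 0, median 1517, highest 5237) and bipolar barcodes, whose cells carry the photoreceptor signal to the inner retina, had 1673 CPM (1610 to 1739; lowest 220, median 1558, highest 5747). These neighbours in the order of levels differed by less than their intervals. Horizontal barcodes had 665 CPM (642 to 690; lowest 0, median 658, highest 1983). The glial classes lay far below all the neurons, at 117 CPM (91.0 to 149) in microglial and 82.8 CPM (66.4 to 102) in Müller barcodes, and their median barcode had no Sncb UMI.

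**Figure D1:**
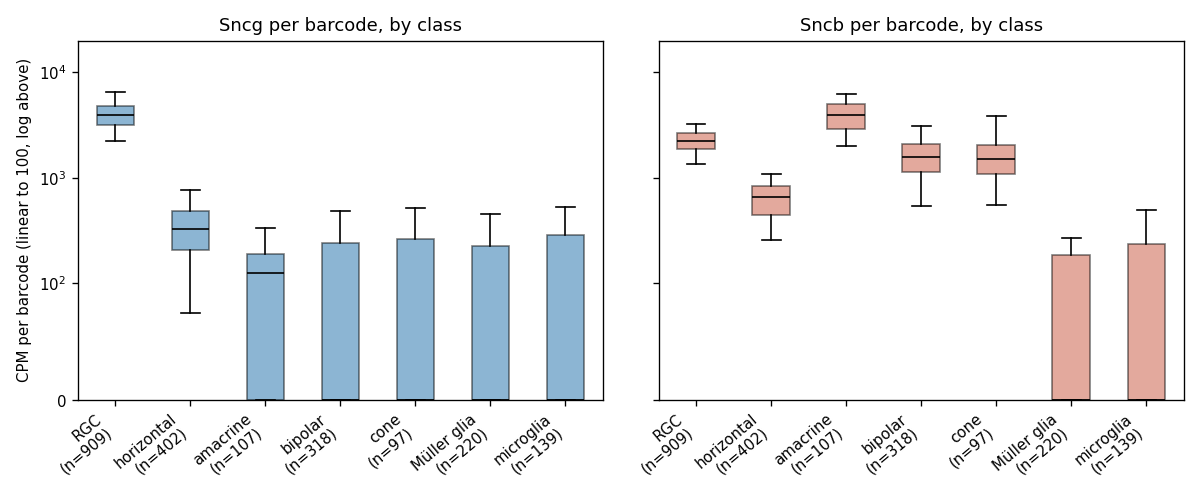
Sncg (left) and Sncb (right) in single barcodes of each class, in CPM on an axis that is linear to 100 and logarithmic above; boxes span the quartiles with the median as a line, and whiskers the 5th to 95th percentiles. Summed over a class, Sncg stood at 4128 CPM in RGC barcodes against 117 to 365 CPM elsewhere, and Sncb at 2281 CPM in RGC against 3825 CPM in amacrine barcodes.

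The Sncb ratio of RGC to amacrine barcodes was 0.596 (0.573 to 0.621), a difference past 1.5-fold in the classes as defined, and 19.2% of all genes with enough UMIs were 1.5-fold or more lower in RGC barcodes in this comparison. Over bipolar barcodes the ratio was 1.36 (1.31 to 1.42) and over cone barcodes 1.35 (1.25 to 1.46), neither of them past 2-fold. The bipolar value describes mainly the 310 of 318 barcodes with a UMI of Prkca, a marker of rod bipolar cells. In the 8 without one, Sncb was at 3821 CPM (3287 to 4416), above its RGC level. These 8 had a median mitochondrial share of 5.59% and a median depth of 5747 UMIs. In the 310 these were 8.56% and 4287 UMIs, and their part in the Sncb difference was not tested. The ratio of RGC barcodes was 3.43 (3.30 to 3.56) over horizontal, 27.6 (22.4 to 34.4) over Müller and 19.4 (15.3 to 25.1) over microglial barcodes. Sncb was thus 2-fold or more higher in RGC barcodes in 3 of 6 comparisons, beside the 18.9%, 30.5% and 42.5% of all genes given above for these classes. With a mitochondrial limit of 5% in place of 10%, which left 4 bipolar and 10 cone barcodes, the ratio was 0.868 over bipolar and 0.888 over cone barcodes. The median mitochondrial share was 3.93% in RGC, 8.55% in bipolar and 7.0% in cone barcodes, and its part in these ratios was not tested. Counting barcodes in every class they met gave 0.672 over amacrine barcodes, no longer past 1.5-fold, and 7.88 over microglial barcodes.

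The proportion of the pair, taken within the same barcodes, also differed between classes. Sncb made up 35.6% (35.3 to 35.9) of the UMIs of the pair in RGC barcodes, against 64.6% (63.2 to 66.0) in horizontal, 97.0% (96.3 to 97.7) in amacrine, 92.7% (91.6 to 93.6) in bipolar and 93.0% (90.9 to 94.7) in cone barcodes. In Müller barcodes it was 37.9% (31.7 to 44.5) and in microglial barcodes 43.5% (35.5 to 51.7), so the interval of the Müller barcodes includes the RGC proportion and that of the microglial barcodes has its lower bound just below it. Sncb UMIs outnumbered Sncg UMIs in 54 of 909 RGC barcodes (5.94%), in 311 of 402 horizontal (77.4%), 107 of 107 amacrine, 317 of 318 bipolar and 94 of 97 cone barcodes. The quartiles over single RGC barcodes were 30.6%, 35.6% and 41.6%.

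**Figure D2:**
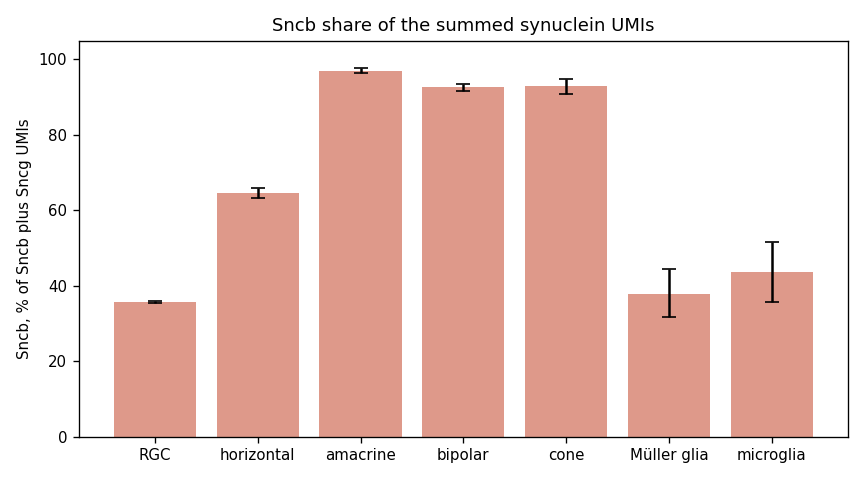
Sncb as a percent of Sncb plus Sncg UMIs in each class, as bars with 95% exact binomial intervals. RGC barcodes were at 35.6% and Müller barcodes at 37.9%, while amacrine, bipolar and cone barcodes were at 92.7% to 97.0%.

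Droplets also take up free RNA, which gives low counts of abundant transcripts in cells that do not make them. The level of each synuclein was therefore set beside 10 genes abundant in RGCs, namely the neurofilament genes Nefl, Nefm and Nefh, Thy1, Pou4f1, Nrn1, Stmn2, Gap43, Uchl1 and Tubb3, each as a percent of its RGC level. Sncg was at 2.83% of its RGC level in amacrine, 3.21% in bipolar, 3.08% in cone, 3.28% in Müller and 3.69% in microglial barcodes. The 10 genes had medians of 2.71% in bipolar, 3.65% in cone, 3.15% in Müller and 3.24% in microglial barcodes, so Sncg sat among the other RGC genes in these 4 classes. In amacrine barcodes their median was 19.4%, 2 of the 10 were below Sncg, and Sncg itself was no higher than in glia. No expression of Sncg is read from these 5 classes at this level. No profile of empty droplets was analysed here, and the source of these UMIs was not tested.

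Sncg in horizontal barcodes was at 8.83% of its RGC level, with 4 of the 10 genes below it. Those 10 genes ranged from 1.56% for Nrn1, which encodes the neurite protein neuritin, to 53.5% for Nefh, with a median of 16.3%. Pou4f1, a transcription factor of RGCs, was at 1.61%. The ratio of horizontal to Müller barcodes for Sncg was 2.69 (2.27 to 3.21), so Sncg was higher in horizontal barcodes than in glia beyond counting error. Sncb stood at 29.2% of its RGC level in horizontal, 168% in amacrine, 73.3% in bipolar and 73.9% in cone barcodes, above all 10 genes in the last 3 of these classes and above 8 of 10 in horizontal barcodes. In glia it was at 3.63% in Müller barcodes, above 7 of the 10 genes, and at 5.15% in microglial barcodes, above all 10, whose range there was 1.76% to 4.90%. The ratio of microglial to Müller barcodes for Sncb was 1.42 (1.02 to 1.97). The microglial level rests on 67 Sncb UMIs, of which the highest single barcode held 9, and 94 of 139 barcodes held none. The weight of that barcode in the percent and in the ratio was not tested, and no Sncb expression is read from microglia.

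**Figure D3:**
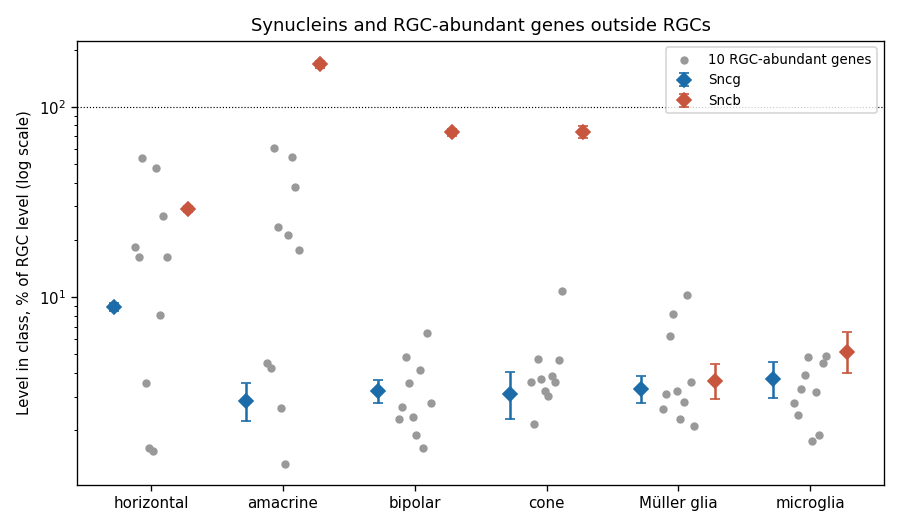
Level of Sncg, Sncb and 10 genes abundant in RGCs as a percent of their level in RGC barcodes, on a log axis, for 6 other classes, with 95% intervals on the synucleins and a dotted line at the RGC level. Sncg lay among the gray points at 2.83% to 3.69% in 5 classes and at 8.83% in horizontal barcodes, while Sncb was at 73.3% to 168% in bipolar, cone and amacrine barcodes.

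The share of barcodes with a UMI gave the same picture once each barcode was thinned to 3000 UMIs. A Sncg UMI was then present in 99.8% of RGC, 64.9% of horizontal, 30.8% of amacrine, 32.1% of bipolar, 35.1% of cone, 37.3% of Müller and 38.1% of microglial barcodes. Without thinning the shares were 99.9%, 94.8%, 55.1%, 44.7%, 43.3%, 46.8% and 42.4% in the same order of classes. The thinned shares of amacrine, bipolar and cone barcodes were thus no higher than those of both glial classes, and no Sncg expression is read from them. A Sncb UMI was present after thinning in 99.9% of RGC, 85.3% of horizontal, 100% of amacrine, 97.8% of bipolar and 96.9% of cone barcodes, against 20.9% of Müller and 27.3% of microglial barcodes. Without thinning it was in 99.3% of horizontal, 32.7% of Müller and 32.4% of microglial barcodes.

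Sncb also differed within the amacrine class. In the 86 barcodes with at least 3 Gad1 UMIs and no Slc6a9, which mark cells that release GABA, Sncb was at 4097 CPM, and in the 19 with at least 3 UMIs of Slc6a9, a glycine transporter gene, and no Gad1 it was at 2838 CPM, a ratio of 1.44 (1.28 to 1.63). Sncg was at 121 CPM in the Gad1 barcodes and 112 CPM in the Slc6a9 barcodes. Within the bipolar class, 310 barcodes with a Prkca UMI, a marker of rod bipolar cells, had 1605 CPM of Sncb and 8 barcodes without one had 3821 CPM. These 2 bipolar groups also differed in depth and mitochondrial share, as given above. Both splits were chosen after the values were seen.

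Among RGC barcodes, 3 subsets were set against the 592 RGC barcodes that met none of their thresholds. They were 63 barcodes with at least 3 UMIs of Opn4, which encodes the photopigment melanopsin of intrinsically photosensitive RGCs, 92 with at least 2 UMIs of Foxp2, a transcription factor of the F-RGC types, and 159 with at least 20 UMIs of Cartpt, a neuropeptide gene found in ON-OFF direction-selective RGCs. A further 3 barcodes met several thresholds and were left out. Sncg was lowest in the Foxp2 barcodes and Sncb hardly differed between subsets.

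Foxp2 barcodes had 3148 CPM of Sncg (lowest 1662, median 3092, highest 5021), against 4059 CPM in RGC barcodes with none of the 3 markers (lowest 0, median 3923, highest 10762). The ratio was 0.775 (0.752 to 0.799). The 2 ranges overlap, and the Foxp2 barcodes lie in the lower part of the other range. Cartpt barcodes had 4642 CPM (2125, 4656 and 9822), a ratio of 1.14 (1.12 to 1.17) over the barcodes with none, and Opn4 barcodes had 4521 CPM (841, 4315 and 7200), a ratio of 1.11 (1.08 to 1.15). Cartpt over Foxp2 barcodes gave 1.47 (1.43 to 1.52) for Sncg and 1.08 (1.04 to 1.12) for Sncb.

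Sncb was at 2194 CPM in Foxp2 barcodes (lowest 871, median 2197, highest 3532), 2368 CPM in Cartpt barcodes (990, 2396 and 3910) and 2302 CPM in Opn4 barcodes (622, 2309 and 4043), against 2263 CPM in RGC barcodes with none (0, 2230 and 4269). The ratios were 0.969 (0.934 to 1.01), 1.05 (1.02 to 1.07) and 1.02 (0.978 to 1.06) in that order of subsets. Neither gene passed 1.5-fold in any of the 3 comparisons, in which 8.53% of genes were lower by that much in Foxp2 barcodes and 3.01% higher, 1.58% higher and 5.1% lower in Cartpt barcodes, and 6.61% higher and 12.2% lower in Opn4 barcodes. As a proportion of the pair, Sncb was 41.1% in Foxp2, 33.8% in Cartpt and 33.7% in Opn4 barcodes, against 35.8% in those with none.

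Transcripts of other classes also differed between the subsets. The 4 rod markers summed to 409.8 CPM in Foxp2, 236 in Cartpt and 253 in Opn4 barcodes, against 295 CPM in RGC barcodes with none, and none of the 4 was at 0 in any subset. The 6 Müller markers summed to 319 CPM in Foxp2, 499 in Cartpt and 480 in Opn4 barcodes, against 429 CPM, with 1 at 0 in the Foxp2 barcodes. The 6 horizontal markers summed to 238, 380 and 415 CPM in the same order of subsets, against 426 CPM, with 1 at 0 in the Foxp2 barcodes, the 6 amacrine markers to 543, 532 and 329 CPM, against 496 CPM, with 1 at 0 in the Foxp2 and 2 in the Opn4 barcodes, and the 7 bipolar markers to 289, 254 and 375 CPM, against 355 CPM. The 8 RGC markers summed to 7942 CPM in Foxp2, 7501 in Cartpt and 5402 in Opn4 barcodes, against 7592 CPM. The part of any of these lists in the synuclein differences was not tested. Median depth was 15372 UMIs in Foxp2, 18974 in Cartpt and 18005 in Opn4 barcodes, against 14782 in those with none. Across 3 equal groups of all RGC barcodes by depth, shallow to deep, Sncg was at 4112, 4029 and 4199 CPM and Sncb at 2194, 2322 and 2293 CPM.

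**Figure D4:**
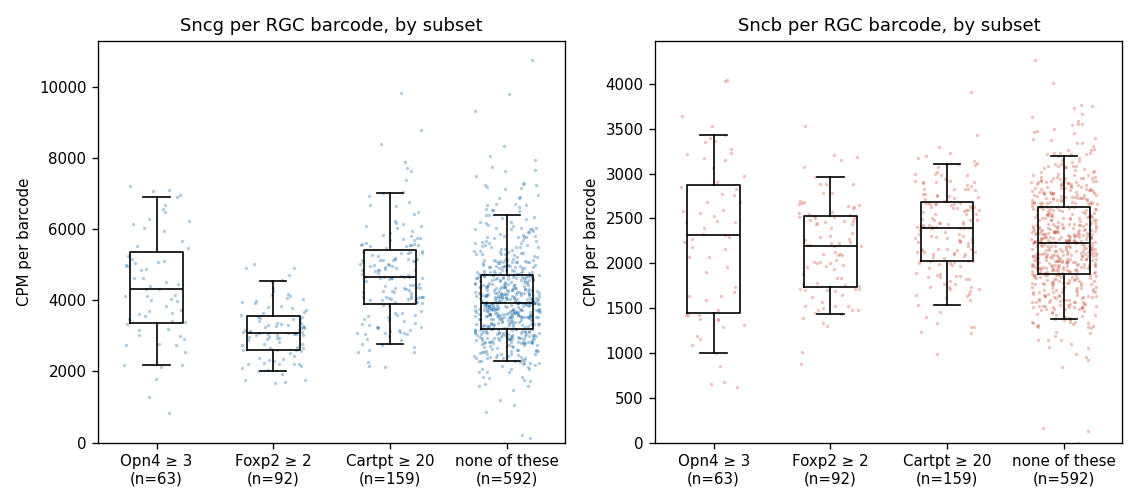
Sncg and Sncb in CPM in single RGC barcodes (points) with Opn4, Foxp2 or Cartpt and in those with none of the 3; boxes span the quartiles with the median as a line, and whiskers the 5th to 95th percentiles. Summed over a group, Sncg was at 3148 CPM in Foxp2 and 4642 CPM in Cartpt barcodes against 4059 CPM in the rest, and Sncb stayed between 2194 and 2368 CPM.

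The Opn4 barcodes were themselves mixed. The 23 that also had at least 5 UMIs of Spp1, which encodes osteopontin and is known from alpha RGCs, had 5272 CPM of Sncg, and the 40 without had 3807 CPM, a ratio of 1.38 (1.31 to 1.46). Sncb was at 2629 CPM with Spp1 and 1991 CPM without, a ratio of 1.32 (1.23 to 1.42), so both genes were higher in the Spp1 barcodes. This split was made after the values were seen. The barcodes with Spp1 were deeper, with a median of 26428 UMIs against 15277. Their 4 rod markers summed to 184 CPM against 318 CPM, and their 6 Müller markers to 338 CPM against 614 CPM. Their 6 horizontal markers summed to 577 CPM against 260.4 CPM, and the 8 RGC markers to 6140 CPM against 4701 CPM. The 6 amacrine markers summed to 261 CPM against 394 CPM, and the 7 bipolar markers to 353 CPM against 396 CPM. In the rod, Müller, horizontal and RGC lists 1 marker was at 0, a horizontal one in the barcodes without Spp1. In the amacrine list 2 were at 0 both with and without Spp1. The part of depth and of these transcripts in the difference was not tested.

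A further 6 markers were each used to set RGC barcodes against all other RGC barcodes. With Neurod2, a neuronal transcription factor (98 barcodes), Sncg was lower and Sncb slightly higher, with ratios of 0.843 (0.821 to 0.866) and 1.10 (1.07 to 1.14), and Sncb made up 41.2% of the pair against 34.9%. With Spp1 (27 barcodes) the ratios were 1.24 (1.20 to 1.28) for Sncg and 1.13 for Sncb. The others were Tbr1 (103 barcodes), Lmo2 (14), Penk (79) and Pvalb (175). Their Sncg ratios were 1.04 (1.02 to 1.07), 0.918 (0.865 to 0.974), 0.970 (0.942 to 0.999) and 0.911 (0.895 to 0.928) in that order. Their Sncb ratios were 1.05 (1.02 to 1.08), 0.931 (0.859 to 1.01), 0.986 (0.948 to 1.03) and 0.955 (0.932 to 0.979). The Sncb intervals with Lmo2 and Penk include 1. The 2 ratios thus lay on opposite sides of 1 with Neurod2 and on the same side with Spp1. In the Neurod2 barcodes the 6 horizontal markers summed to 267 CPM, against 414 CPM in the other RGC barcodes, with 1 at 0, and the 6 amacrine markers to 584 CPM against 483 CPM, and their part was not tested. Of the 27 Spp1 barcodes, 23 are the Opn4 barcodes with Spp1 described above.

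Sncg varied more than Sncb between RGC barcodes at equal depth. Thinned to 8000 UMIs, which 853 barcodes allowed and which left out 56, Sncg averaged 33.4 ± 11.5 UMIs (SD over barcodes), with a 5th percentile of 17 and a 95th of 53. Sncb averaged 18.1 ± 5.37 UMIs, with 10 and 27 at these percentiles. The Fano factor, the variance divided by the mean, which is 1 for counting error alone, was 3.96 for Sncg and 1.60 for Sncb. Of the 255 genes that averaged 5 or more UMIs, 28 had a higher Fano factor than Sncg and 107 a higher one than Sncb, beside a median of 1.47. At equal relative spread between cells the Fano factor rises with the mean, so these ranks also depend on abundance. The SD was 34.4% of the mean for Sncg and 29.7% for Sncb, counting error included.

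Few RGC barcodes lacked either transcript. Below 1000 CPM there were 5 barcodes for Sncg and 14 for Sncb, 4 of them shared. The barcode with no Sncg had 1 Sncb UMI among 6169, with 1 Slc17a6, 2 Rbpms and 535 Apoe UMIs and no Thy1 or Pou4f1 UMI. Over the 909 RGC barcodes the Spearman correlation of Sncg with Sncb was 0.207 in CPM and 0.156 after thinning. The points share library and depth, and a value this weak is given as a description only.

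**Figure D5:**
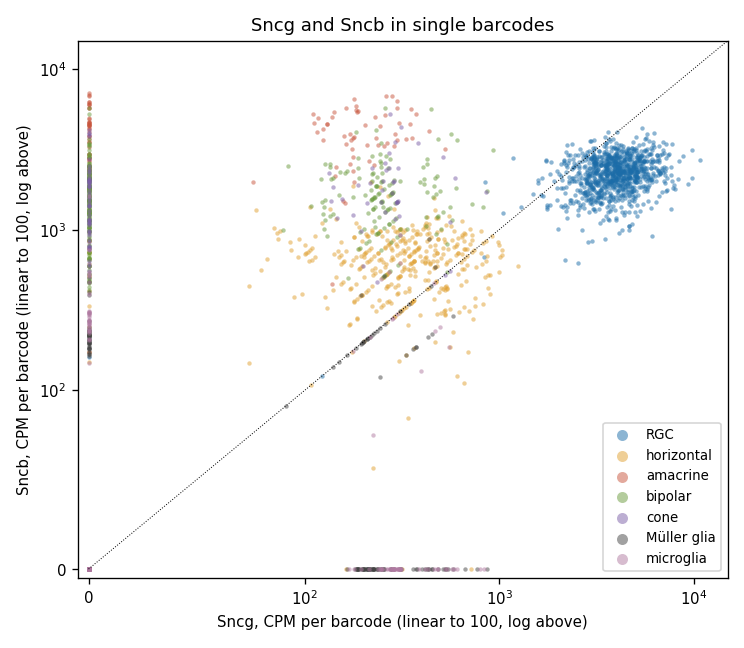
Sncg against Sncb in CPM for single barcodes of the 7 classes, on axes linear to 100 and logarithmic above, with a dotted line where both are equal. RGC barcodes spread widely in Sncg around a median of 3960 CPM, and amacrine barcodes lie at a median of 124 CPM of Sncg and 3924 CPM of Sncb.

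Likeness in pattern over the 7 classes was measured with Pearson's r of log2(CPM + 5) for 7007 genes, in which the points share 1 library and free RNA. The 10 genes most like Sncg were Nefm, Srgap1, Stk32c, Capn5, Nefl, Opn4, Tuba1b, Prph, Mtmr2 and Pvalb, with r between 0.94 and 0.97. They include the medium and light neurofilament subunits, an alpha-tubulin and peripherin. A high r does not mean a difference of like size, as Tuba1b ran from 404 to 1106 CPM over the classes and Sncg from 117 to 4128 CPM. The 10 most like Sncb were Dnajb6, Eif4e, Tsfm, Arxes1, Csnk2b, Syt1, Vdac2, Urm1, Psma6 and Dnm1, with r between 0.97 and 0.99, among them the vesicle calcium sensor synaptotagmin and the endocytic GTPase dynamin. Sncg and Sncb had an r of 0.26 with each other over the 7 classes. Over single RGC barcodes the highest Spearman correlations were low, at most 0.265 for Sncg (Mif, macrophage migration inhibitory factor) and 0.352 for Sncb (Aldoc, a glycolytic aldolase), and 5 and 8 of the 10 leading genes stayed in the leading 10 after thinning.

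Lists of related genes were compared over the same classes, each beside the share of all genes given above for Sncg. That share was 42.5% against microglial, 30.5% against Müller, 25.2% against cone, 25.6% against bipolar, 18.9% against horizontal and 11.7% against amacrine barcodes for genes 2-fold or more higher in RGC barcodes. For genes 2-fold or more lower it was 12.5%, 13.9%, 12.3%, 11.7%, 8.81% and 7.46% in the same order. Of 33 genes of synaptic vesicles and their fusion machinery, 31 were 2-fold or more higher in RGC barcodes than in Müller barcodes and 31 than in microglial barcodes, 20 than in horizontal, 18 than in cone, 16 than in bipolar and 8 than in amacrine barcodes. These are 93.9%, 93.9%, 60.6%, 54.5%, 48.5% and 24.2% of the list, and 0 to 3 of its genes were 2-fold or more lower. The median log2 ratio of this list was 3.77 over Müller, 3.90 over microglial, 1.21 over horizontal, 1.84 over cone, 0.74 over bipolar and 0.26 over amacrine barcodes, beside medians over all genes of 0.36, 0.76, 0.12, 0.22, 0.14 and -0.00. The list holds Slc17a6, which the class rules used. Against amacrine barcodes, where Sncb was lower in RGC barcodes, Vamp2, the main vesicle SNARE, had a ratio of 0.642 (0.604 to 0.683) and Napa, an adaptor that disassembles SNARE complexes, 0.530 (0.469 to 0.602). Cplx1, a regulator of vesicle fusion, had 4.76 (3.69 to 6.24) and Vamp1 7.44 (4.15 to 14.9) in the same comparison. Against bipolar barcodes the lowest ratios were 0.0266 for Slc17a7, the vesicular glutamate transporter of bipolar cells and photoreceptors, and 0.144 for Sv2b.

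Of 27 axonal and cytoskeletal genes, 27 were 2-fold or more higher in RGC barcodes than in microglial, 25 than in Müller, 24 than in cone, 20 than in bipolar, 14 than in horizontal and 11 than in amacrine barcodes. As shares of the list these are 100%, 92.6%, 88.9%, 74.1%, 51.9% and 40.7%, each above the share of all genes, and 0 or 1 gene was 2-fold or more lower. Nefm had a ratio of 23.6 (14.5 to 41.4) and Nefl of 22.2 (17.2 to 29.2) over amacrine barcodes, beside 35.4 for Sncg, and Map2, a dendritic microtubule protein, had 0.454 (0.374 to 0.557). The 20 pan-RGC genes, of which Rbpms and Slc17a6 were in the rule, were 2-fold or more higher in 16 cases over amacrine, 18 over horizontal, 19 over bipolar and 20 over each of cone, Müller and microglial barcodes, or 80% to 100% of the list.

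Chaperone and protein quality genes were listed because synucleins interact with chaperones. Of the 23 or 24 measured, 4 were 2-fold or more higher in RGC barcodes than in horizontal, 3 than in amacrine, 9 than in bipolar, 11 than in cone, 9 than in Müller and 14 than in microglial barcodes. The shares of 16.7% over horizontal and 13.0% over amacrine barcodes are near those of all genes, while 39.1% over bipolar, 47.8% over cone, 39.1% over Müller and 60.9% over microglial barcodes are higher. Between 0 and 4 of these genes were 2-fold or more lower. Hspa8, the constitutive heat shock cognate protein, had a ratio of 2.92 (2.67 to 3.20) over amacrine barcodes, and Ywhah, a 14-3-3 protein, had 3.32 (3.05 to 3.63). Of 23 ubiquitin and lysosome genes, 3, 3, 4, 8, 6 and 8 were 2-fold or more higher in the same order of classes, and 0, 0, 0, 0, 3 and 7 were 2-fold or more lower. The shares higher were 13.0%, 13.0%, 17.4%, 34.8%, 26.1% and 34.8%. They lie below those of all genes over horizontal, bipolar, Müller and microglial barcodes, near them over amacrine and above them over cone barcodes. The share lower was 30.4% over microglial barcodes, beside 12.5% of all genes, and 13.0% over Müller barcodes, beside 13.9%. Of 12 dopamine and catecholamine genes, 3 or 4 had enough UMIs in each comparison. Of these, 1 was 2-fold or more higher in RGC barcodes than in bipolar barcodes and 2 than in each other class. The shares were 33.3% over bipolar, 50% over cone and 66.7% over the other classes, beside those of all genes given above. Over horizontal, amacrine and cone barcodes 1 gene was 2-fold or more lower (33.3%, 33.3% and 25%), and 0 over the rest. Shares of so few genes are given as a description only. Drd1, a dopamine receptor gene, was at 19.1 CPM in RGC barcodes, against 118 CPM in horizontal and 78.3 CPM in amacrine barcodes.

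Within RGC barcodes some vesicle genes differed between the subsets more than the synucleins did. In Cartpt barcodes 3 of 33 vesicle genes were 1.5-fold or more higher and 0 lower, with ratios of 1.71 for Cplx1, 1.74 for Sv2c and 1.54 for Syt2. These are 9.09% of the list, beside 1.58% of all genes. In Foxp2 barcodes 0 were higher and 6 lower, or 18.2% beside 8.53% of all genes, among them Cplx1 at 0.57, Sv2c at 0.47 and Syt2 at 0.30. In Opn4 barcodes 0 were higher and 5 lower, among them Cplx2 at 0.19 and Vamp1 at 0.31, and this 15.2% is near the 12.2% of all genes. The other lists gave 1 higher and 8 lower of 20 pan-RGC genes in Opn4 barcodes, 1 and 3 in Foxp2 and 1 and 2 in Cartpt barcodes. For the axonal genes these counts were 1 and 2, 0 and 3, and 0 and 1, for chaperones 0 and 1, 1 and 0, and 0 and 1, and for ubiquitin and lysosome genes 0 and 1, 0 and 0, and 1 and 0. Beside 6.61% of all genes higher and 12.2% lower in Opn4, 3.01% and 8.53% in Foxp2 and 1.58% and 5.1% in Cartpt barcodes, the 8 lower pan-RGC genes in Opn4 barcodes were 40% of their list, and the counts of the last 2 lists were at most 1 each. Prph, which encodes peripherin, was 11.1-fold higher in Opn4 barcodes, and Hspa1a, an inducible chaperone, had a ratio of 1.75 in Foxp2 barcodes. Of the dopamine and catecholamine genes measured in these 3 comparisons, 1 passed 1.5-fold, Drd1, with a ratio of 0.633 in Foxp2 barcodes.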

How the data were processed

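The deposited table holds counts: UMIs per gene and barcode, whole numbers without normalization by the authors, with a second deposited table giving gene symbols. Per the submitters' processing notes, Cell Ranger (no version), Seurat 2.2 and build mm10 were used. How reads were aligned and cells called is not given in the sources used here.

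Barcodes with at least 500 genes and at most 10% mitochondrial UMIs were kept (538 of 3237 removed), and 63 doublets called by Scrublet (2.33% of 2699) were left out. These steps fell unevenly on the classes. They kept 353 of 720 barcodes that met the bipolar rule, against 918 of 950 that met the RGC rule. Classes came from UMI thresholds: horizontal, Lhx1 of 2 or more and no Slc17a6; amacrine, Gad1 plus Slc6a9 of 3 or more; bipolar, Trpm1 of 2 or more and Pcp2 of 3 or more; cone, Arr3 plus Gnat2 of 5 or more; Müller glia, Rlbp1 plus Slc1a3 of 5 or more; microglia, C1qa, C1qb and Cx3cr1 together of 5 or more, the last 3 without Slc17a6. The 50 barcodes meeting several rules and 394 meeting none were in no class. UMIs were summed per class and divided by the class total. Ratios have exact conditional intervals, levels exact Poisson intervals and shares exact Clopper-Pearson intervals. With 1 pooled sample no test was run and no p-value is given. The depth, 3198 to 53709 UMIs a barcode (median 7674), sets the precision of each interval, which covers counting error only.

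Background shares count genes with 100 or more UMIs over both groups, and a denominator sum under 3 UMIs was set to 3. The genes named are the 2 members, 10 RGC-abundant genes, up to 4 highest and 4 lowest list genes past 1.5-fold, and the 10 most alike. The members and the 6 gene lists were chosen with earlier results of these data known. Alternatives were other cell filters, stricter or overlapping classes, halved or doubled subset thresholds, medians over barcodes, thinning, and totals without the most abundant genes. The computations were tested on simulated data and used scanpy 1.11.5, scipy 1.17.1 and numpy 2.4.6 under Python 3.11.15. One marker gene of the rod list is not reported here and was left out of its sums.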

Additional observations from a re-analysis of the deposited data

How the results depend on the processing

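No paired analysis was possible because no barcode can be tied to a retina, and for the same reason no retina could be left out. Of 120 alternative ratios, 95 stayed within the interval of the reported one. With a mitochondrial limit of 5% (34 horizontal, 79 amacrine, 4 bipolar, 10 cone and 32 Müller barcodes left) the ratio of RGC barcodes was 25.6 over Müller for Sncg, and 0.571 over amacrine, 0.868 over bipolar and 0.888 over cone for Sncb; Sncb was 95.6% of the pair in bipolar and 95.8% in cone barcodes, and the Cartpt ratio of Sncg was 1.11. Without the cell filter, Sncb gave 1.47 over bipolar and 14.4 over microglia, and with doublets kept 14.7 over microglia. With barcodes in every class they met, Sncg gave 10.4 over amacrine and 14.0 over bipolar, Sncb gave 0.672 over amacrine (no longer past 1.5-fold), 21.4 over Müller and 7.88 over microglia, and Sncb was 89.5% of the pair in amacrine, 85.1% in bipolar and 66.0% in microglial barcodes. These classes then share barcodes with the RGCs or with each other. Stricter class thresholds gave 10.6 over horizontal for Sncg, 0.571 over amacrine for Sncb and 62.5% of the pair in horizontal barcodes. Medians over barcodes gave 12.3 over horizontal for Sncg, and 1.44 over bipolar and 1.48 over cone for Sncb, with Cartpt ratios of 1.19 for Sncg and 1.07 for Sncb; where a class median was 0 this alternative gave no value. Thinning to 3000 UMIs gave 0.552 over amacrine for Sncb. The Cartpt ratio of Sncg was 1.10 with halved thresholds and 1.11 with doubled ones. The Opn4 ratio of Sncb was 1.09 with halved and 0.948 with doubled thresholds. The correlation of Sncg with Sncb was 0.156 after thinning. The causes were not tested.

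Shares with a UMI were set at 3000 UMIs. Without thinning Sncg was in 94.8% of horizontal, 55.1% of amacrine, 44.7% of bipolar and 46.8% of Müller barcodes, and Sncb in 99.3% of horizontal, 100% of bipolar and 32.7% of Müller barcodes. At 6000 UMIs, which left only the 384 horizontal, 41 amacrine, 59 bipolar, 8 cone, 13 Müller and 8 microglial barcodes that were deep enough, Sncg was in 84.1% of horizontal, 51.2% of amacrine, 49.2% of bipolar, 75% of cone and 76.9% of Müller barcodes, and Sncb in 100% of RGC, 96.9% of horizontal, 100% of bipolar, 100% of cone, 61.5% of Müller and 37.5% of microglial barcodes. Of 108 list counts, 10 moved by over 1.5 times with a minimum of 30 UMIs. Retinas, animals and sorting runs cannot be told apart, and no spread between animals is known.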

Other observations

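The 394 kept barcodes that met no class rule had 1124 CPM of Sncg and 1300 CPM of Sncb, and the 50 that met several rules had 1187 and 1826 CPM. These barcodes belong to no comparison above. In 3 equal groups by mitochondrial share, low to high, RGC barcodes had 4255, 4135 and 3981 CPM of Sncg and 2321, 2342 and 2174 CPM of Sncb.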
